A study of Mus musculus with 10 samples.

Results

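Whether stem cell factor (SCF) and transforming growth factor beta (TGF-β) acted on gene expression independently of each other was asked of all 10 RNA-sequencing libraries of the series. The libraries came from bone marrow-derived cultured mast cells (BMMCs), which are grown out of marrow with interleukin 3 (IL-3), of wild type C57BL/6 mice. The labels give an age of 6 to 8 weeks, which is also how long the cultures were kept before stimulation. They form a design of 2 by 2 factors. IL-3 alone gave 2 libraries, for which no time is given. TGF-β without SCF gave 2, 1 at 1 ng/mL and 1 at 10 ng/mL, and SCF at 100 ng/mL without TGF-β gave 2. SCF with TGF-β gave 4, 2 at each TGF-β dose, with no SCF dose in their labels. The factors were given for 72 h, and all cells, the controls included, had been kept in IL-3, for which the labels give 5 ng/mL in one place and 10 ng/mL in another. The TGF-β doses were pooled in each cell of the design, and in the libraries without SCF dose and replicate number are the same split. The labels do not say that replicates came from separate cultures or mice, so the p-values cover the spread among these libraries alone, and that spread may be technical.

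SCF is the ligand of the receptor tyrosine kinase Kit and drives survival, growth and maturation of mast cells through the MAP kinase, PI3 kinase and STAT5 pathways. TGF-β signals through serine/threonine kinase receptors and SMAD transcription factors, restrains mast cell growth and mediator production, and turns on the proteases and the αE integrin of mucosal mast cells. The inputs are called additive on the log scale when the change with both equals the sum of the changes with each, that is, when their fold changes multiply. The interaction, the TGF-β effect with SCF minus the TGF-β effect without it, is 0 in that case, below 0 when the combination gives less RNA than predicted and above 0 when it gives more.

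The libraries held between 1237382 and 2323916 counts in genes, with the fewest in the TGF-β libraries without SCF (1295048 and 1237382). Reads matched to more than 1 place, which went into no gene's count, came to 55.6% and 45.7% of all tallied reads in those TGF-β libraries and to 37.2% to 48.8% in the other 8. The defining mast cell markers Kit, Fcer1a, Ms4a2, Cpa3, Hdc and Gata2 summed to between 18800 and 43600 CPM (a gene's count scaled to a common library total) in every library. Marker sums of neutrophils and fibroblasts did not pass 4.04 CPM, those of lymphocytes 12.9 CPM and those of eosinophils 33.9 CPM. Erythroid and platelet markers summed to 1600 to 2230 CPM, mostly from Itga2b (1200 to 1800 CPM) and Gp1ba (231 to 436 CPM). Basophil markers, which share Cpa3, Gata2 and Ms4a2 with the mast cell markers, summed to 8940 to 28800 CPM. Of the unshared ones, Cd200r3 had 449 to 695 CPM. Mcpt8 had 0.515 and 1.3 CPM with IL-3 and 11.6 to 25.8 with SCF and TGF-β. Others went the other way, Il4 from 38.6 and 35.7 to 6.45 to 9.21 CPM and Prss34 from 13.9 and 14.3 to 1.12 to 9.82. Dendritic cell markers summed to 28.6 and 54.1 CPM with TGF-β alone, with Itgax at 16.2 and 40.4 CPM, against 10.4 to 31.1 CPM elsewhere. A list of 15 macrophage markers summed to 681 and 833 CPM with TGF-β alone against 161 to 397 CPM elsewhere. Cx3cr1 made up nearly all of it, at 648 and 804 CPM with TGF-β alone, while Cd68 had 8.49 and 5.66 CPM there against 36.6 to 76.3 with SCF, with or without TGF-β, and C1qa, C1qb, C1qc and Marco were at or near 0. In bulk samples, fewer cells of a type and less RNA per cell cannot be told apart.

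For most genes the TGF-β effect with SCF could not be told from the effect without it. Of 10654 genes tested, 37 had a called interaction (0.347%), with an adjusted p under 0.05 by edgeR's quasi-likelihood F test after Benjamini-Hochberg adjustment over all genes tested. In 26 of them the combination gave less RNA than the additive prediction (0.244%) and in 11 more (0.103%), while an unadjusted p under 0.05 was reached by 494 genes below and 493 above. Both count and split depend on the model. With replicate number in the fit 75 were called (43 below, 32 above). With it entered within each SCF state, a choice made after seeing the data, 357 were called (182 below, 175 above). The labels do not say what a replicate number shares. The interaction had a median standard error of 0.379 on the log2 scale, so the median gene's 95% interval reached 0.79 to each side, and it lay inside −1 to 1, a factor of 2 either way, for 4350 genes. The number of calls rested on single libraries: it was 3 without IL-3 replicate 1 and 19 without IL-3 replicate 2, 15 without either TGF-β library, and 18 and 16 without replicates 1 and 2 of SCF with 10 ng/mL TGF-β. When the TGF-β samples were the 10 ng/mL libraries alone, edgeR called 0 genes, with 843 at an unadjusted p under 0.05, and DESeq2 called 4. With the 1 ng/mL libraries alone edgeR called 6. The split moved too, from 2 below and 1 above without IL-3 replicate 1 to 13 below and 22 above without SCF replicate 1. All 37 kept the direction of the interaction in each of these fits and within each replicate number taken alone, at matched dose. The genes were picked on these same libraries, so a kept direction is no independent support for them.

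For most called genes the single effects ran in the same direction in both states of the other factor. The TGF-β effects without and with SCF share no library, nor do the SCF effects without and with TGF-β. TGF-β effects and SCF effects do share libraries, so their counts are not independent. TGF-β without SCF changed 431 genes (4.05%), 186 higher (1.75%) and 245 lower (2.3%), of which 399 had the same sign with SCF and 269 were also called in that direction there. With SCF, TGF-β changed 1109 genes (10.4%), 479 higher (4.5%) and 630 lower (5.91%), and 978 of them had the same sign without SCF. SCF without TGF-β changed 1136 genes (10.7%), 688 higher (6.46%) and 448 lower (4.2%), of which 1104 had the same sign with TGF-β and 872 were called in that direction. With TGF-β, SCF changed 2883 genes (27.1%). Without single libraries the 431 became 184 (10 ng/mL TGF-β), 215 and 281 (IL-3 replicates 1 and 2), the 1109 became 589 and 677 (SCF replicates 1 and 2), the 1136 became 303 (IL-3 replicate 2) and 379 (SCF replicate 2), and the 2883 became 1497 (1 ng/mL TGF-β). The 269 genes became 156 without IL-3 replicate 1 and 134 without the 10 ng/mL TGF-β library, and the 872 became 269 without IL-3 replicate 2 and 332 without SCF replicate 2. The counts of calls in the 4 comparisons do not measure size of effect, since SCF with TGF-β had 4 libraries and the other groups 2.

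**Figure D1:**
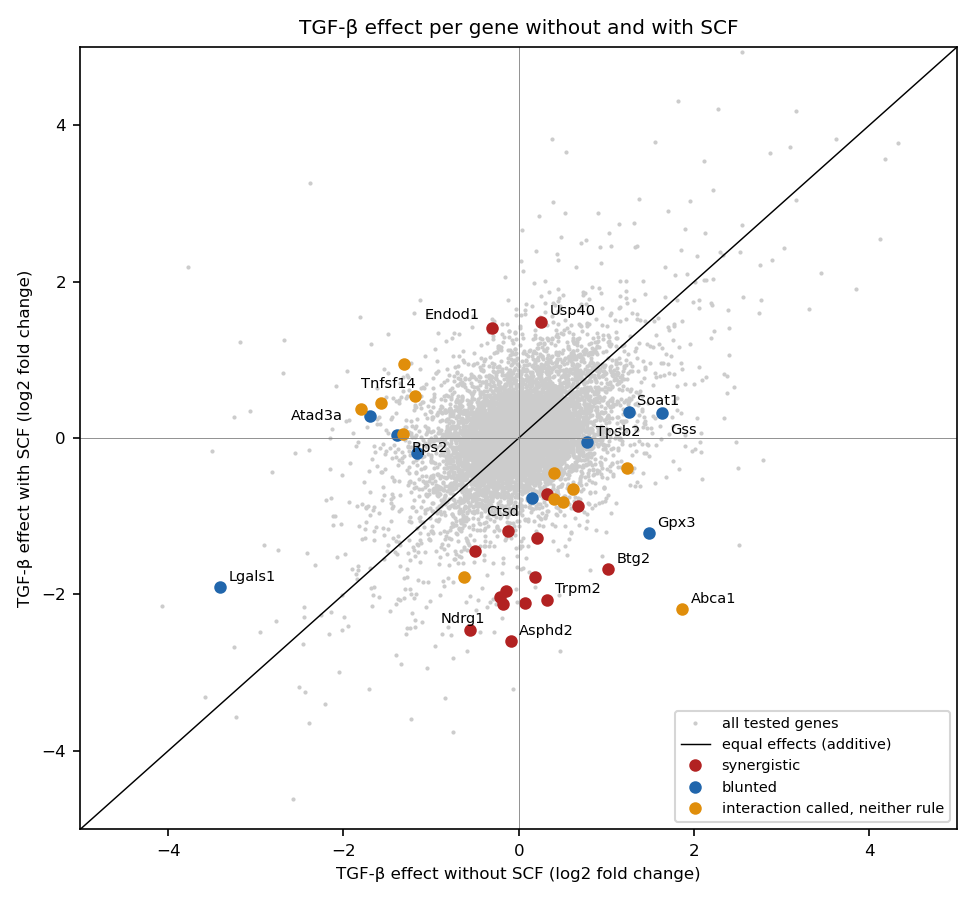
TGF-β effect without SCF (x axis) and with SCF (y axis) for each of 10654 tested genes, as log2 fold change; grey points are all tested genes, the line marks equal effects, and coloured points are the 37 genes with a called interaction by class. Synergistic falls such as Asphd2 and Ndrg1 lie near 0 on the x axis and near −2 on the y axis, while genes such as Gss and Soat1 lie to the right of the line; 20 genes lie outside the axes.

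The called genes were sorted by where the combination stood. A gene is called synergistic when SCF with TGF-β was also called in the direction of the interaction against each of the other 3 groups. It is called blunted when the mean of the combination did not lie beyond the means of all 3 others, so that part of a single-factor change was missing from it. There were 16 synergistic genes (0.15%), 14 with a fall and 2 with a rise, and 9 blunted genes (0.0845%), 5 with a missing rise and 4 with a missing fall. In the other 12 the mean of the combination lay beyond the means of all 3 groups without passing all 3 tests. Their libraries could overlap those of another group, as in Abca1, Ly6a and Rps2. The 5 missing rises became 1 without either IL-3 library and 2 without either TGF-β library, the 4 missing falls 1 without IL-3 replicate 1 or the 10 ng/mL TGF-β library, 2 without replicate 2 of SCF with 10 ng/mL and 7 without SCF replicate 1, and the 12 none without IL-3 replicate 1. Since the same libraries placed and tested them, the classes are descriptions.

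The synergistic falls dropped when both factors were present, and in all but Rasgrp4 and Tmem273 neither factor alone had changed the gene past the threshold. Ndrg1, a stress- and hypoxia-responsive gene, stood at 148 and 149.5 CPM with IL-3, 159 and 105 with 1 and 10 ng/mL TGF-β, 116 and 88.6 with SCF, and 27.4 and 20.8 with SCF plus 1 ng/mL and 17.4 and 28.2 with SCF plus 10 ng/mL TGF-β. All 4 combination libraries lay under every other library, and TGF-β alone overlapped both IL-3 and SCF. TGF-β changed Ndrg1 by −0.18 without SCF and by −2.13 with it on the log2 scale, an interaction of −1.95 ± 0.28 (SE, adjusted p = 0.00815 by edgeR), 3.85-fold below the additive prediction. It passed the threshold without each of the 10 libraries in turn. Ndrg1 (ENSMUSG00000005125) lies at chr15:66929318-66969640 on the minus strand of GRCm38.

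Btg2, an antiproliferative transcriptional co-regulator, had 38.5 and 30.3 CPM with IL-3, 51.2 and 89.1 with TGF-β, 39.1 and 16.3 with SCF, and 9.68, 2.97, 15.2 and 5.97 with both. The combination lay below every other library, SCF replicate 2 being close to its highest value. Its interaction was −2.69 ± 0.55 (SE, edgeR adjusted p = 0.0311). Gdf15, a stress-induced cytokine of the TGF-β superfamily, stood at 42.6 and 26.8 CPM with IL-3, 31.6 and 48.5 with TGF-β, 34.1 and 29.5 with SCF, and 11.4, 5.34, 10.3 and 9.23 with both, so that the 6 libraries of the other groups lay within 26.8 to 48.5 CPM and the combination apart. Tsc22d3, the glucocorticoid-induced leucine zipper GILZ, had 138 and 144 CPM with IL-3, 172 and 153 with TGF-β, 128 and 88.6 with SCF, and 62.7, 30.3, 48.7 and 35.3 with both. The interaction was −1.97 ± 0.41 for Gdf15 and −1.48 ± 0.30 for Tsc22d3 (SE, both edgeR adjusted p = 0.0344).

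Rasgrp4, the mast cell guanine nucleotide exchange factor for RAS, was the only synergistic fall that SCF alone also lowered. It went from 162 and 174 CPM with IL-3 to 116 and 122 with TGF-β, 85.8 and 86.1 with SCF, and 32.8, 30.9, 31.8 and 30.4 with both. The 4 groups did not overlap. SCF alone lowered Rasgrp4 by 0.97 on the log2 scale (adjusted p = 0.00021), the TGF-β value of −0.50 without SCF did not pass (adjusted p = 0.058), and with SCF TGF-β changed it by −1.44. Its interaction of −0.95 ± 0.20 (SE, edgeR adjusted p = 0.0398) missed the threshold when any 1 of the 10 libraries was left out. Fgd2, an exchange factor for CDC42, fell to 16.4, 25.5, 17.0 and 20.6 CPM with both, from 103 and 137 with IL-3, 139 and 77.4 with TGF-β and 80.8 and 71.0 with SCF. Trpm2, a calcium-permeable channel opened by ADP-ribose, had 13.5 and 15.5 CPM with IL-3, 24.7 and 11.7 with TGF-β, 23.6 and 25.1 with SCF, and 6.74, 5.94, 6.26 and 3.80 with both; the combination lay below all others, and above the floor of 3 counts, which is worth 1.29 to 2.42 CPM by library.

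The other synergistic falls included Asphd2 and Dlg2. Asphd2, a gene with an aspartate hydroxylase domain, had 35.3 and 49.4 CPM with IL-3, 47.8 and 31.3 with TGF-β, 26.6 and 22.6 with SCF, and 5.05, 3.56, 4.92 and 2.17 with both. The interaction was −2.50 ± 0.44 (SE, edgeR adjusted p = 0.0131), and the combination stood apart from all other libraries. Its 4 libraries held 33 counts of Asphd2 and 36 of Dlg2, close to the floor, so the size of these falls is uncertain. Interactions were −2.18 for Dlg2, a membrane scaffold protein, −1.89 for the matrix metalloproteinase Mmp27, −1.82 for Ntng2, a membrane-anchored netrin, and −1.54 for Zfyve26, which acts in lysosome renewal. They were −1.06 for Tmem273, which SCF alone raised by 0.58 on the log2 scale (edgeR adjusted p = 0.0301), and −1.04 for Cipc, which binds the circadian factor CLOCK. In all 14 synergistic falls the TGF-β change without SCF missed the threshold, and with SCF it was called downward. The count of 14 was 1 without IL-3 replicate 1 and 5 without replicate 2, 3 and 7 without the 1 and the 10 ng/mL library of TGF-β, 4 without SCF replicate 1, and 6 and 5 without replicates 1 and 2 of SCF with 10 ng/mL TGF-β.

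**Figure D2:**
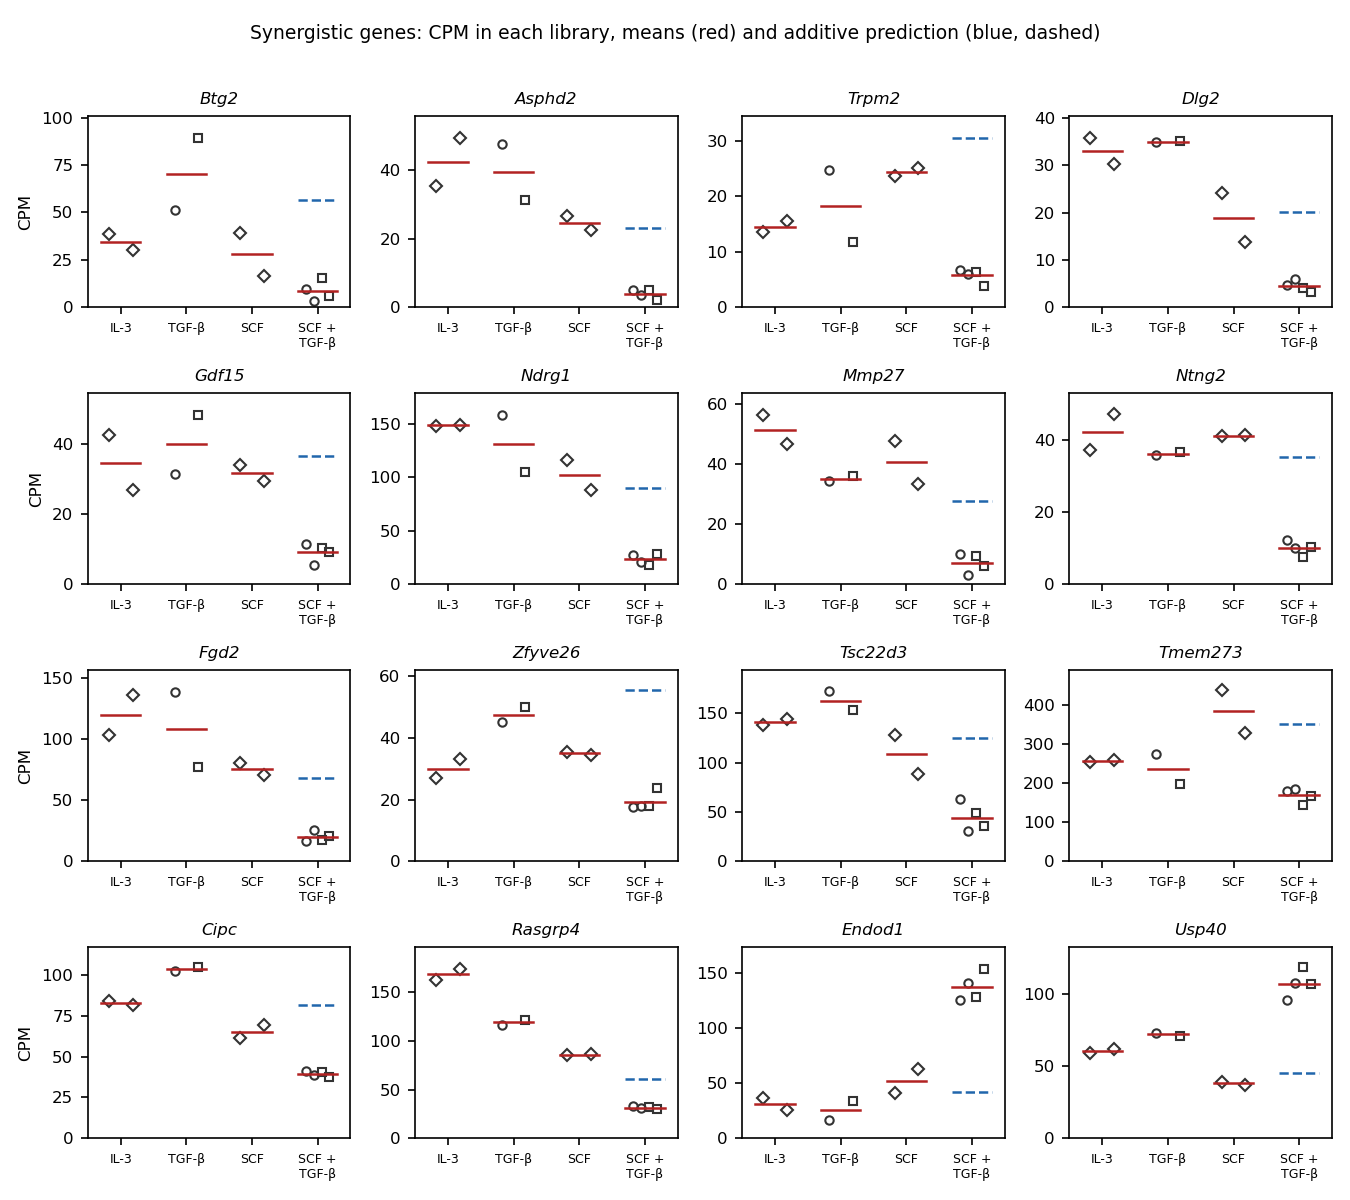
CPM on a linear axis from 0 in each library for the 16 synergistic genes, by IL-3, TGF-β, SCF, and SCF with TGF-β; circles are 1 ng/mL and squares 10 ng/mL TGF-β, diamonds libraries without TGF-β, red bars group means and blue dashed bars the product of the single-factor fold changes. In 14 genes the combination lies under the prediction and under the other groups, and in Endod1 and Usp40 above them.

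Promoter sequence was looked at because TGF-β acts through SMAD proteins, whose short binding motif is CAGAC, or GTCTG on the other strand. Of the 16 synergistic genes 13 matched a RefSeq promoter, and 6 of these 13 (46.2%) held the motif in the 250 bases before the gene's start, against 42.1% of 27025 mouse promoters and 40.6% of the promoters of tested genes. The 3 shown are those that hold it and overlap no annotated exon, at bases −202 (Gdf15), −87 (Usp40) and −192 (Cipc) from the start. Each runs 5′ to 3′ on the gene's strand, from RefSeq on GRCm38.p6, with the motif in capitals. The windows are chr8:70632457-70632706 on the minus strand for Gdf15, chr1:88008552-88008801 on the minus strand for Usp40 and chr12:86946791-86947040 on the plus strand for Cipc.
Gdf15: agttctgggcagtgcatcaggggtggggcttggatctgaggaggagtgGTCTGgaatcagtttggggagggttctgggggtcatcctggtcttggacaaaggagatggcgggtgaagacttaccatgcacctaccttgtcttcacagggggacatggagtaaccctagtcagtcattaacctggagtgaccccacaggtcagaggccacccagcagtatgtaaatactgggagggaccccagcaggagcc
Usp40: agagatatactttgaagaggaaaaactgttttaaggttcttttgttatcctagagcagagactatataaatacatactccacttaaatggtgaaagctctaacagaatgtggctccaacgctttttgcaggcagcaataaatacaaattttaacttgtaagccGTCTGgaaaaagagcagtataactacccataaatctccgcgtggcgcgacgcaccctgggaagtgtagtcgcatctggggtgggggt
Cipc: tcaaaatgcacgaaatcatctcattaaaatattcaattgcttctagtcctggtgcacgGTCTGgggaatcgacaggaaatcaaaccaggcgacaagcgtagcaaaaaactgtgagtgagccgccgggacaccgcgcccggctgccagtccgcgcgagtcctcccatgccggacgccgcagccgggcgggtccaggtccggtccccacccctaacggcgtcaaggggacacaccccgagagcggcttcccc
A match is a description and not a binding site.

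The synergistic rises were Endod1 and Usp40. Endod1, a gene with an endonuclease domain, had 36.4 and 26.1 CPM with IL-3, 17.1 and 33.6 with TGF-β, 41.1 and 62.8 with SCF, and 126, 141, 128 and 154 with both. Every combination library was above all others. The interaction was 1.72 ± 0.36 (SE, edgeR adjusted p = 0.0344), 3.29-fold above the additive prediction. Usp40, a ubiquitin-specific protease, was lowered by SCF without TGF-β, by 0.66 on the log2 scale (adjusted p = 0.022), and raised by SCF with TGF-β, by 0.57 (adjusted p = 0.0064). Its CPM were 59.2 and 62.0 with IL-3, 73.3 and 71.1 with TGF-β, 39.1 and 37.1 with SCF, and 95.6, 108, 118 and 107 with both, with no overlap between groups. The interaction was 1.24 ± 0.23 (SE, edgeR adjusted p = 0.0222). The count of 2 rises was between 0 and 4 without each library: 0 without IL-3 replicate 1 or the 1 ng/mL TGF-β library, 4 without replicate 1 of SCF alone or of SCF with the 1 ng/mL dose, and 1 without replicate 2 of SCF alone or of either combination dose.

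The blunted genes Gss and Soat1 were raised by TGF-β without SCF, and the value with SCF was smaller. Gss, glutathione synthetase, had 101 and 87.4 CPM with IL-3, 272 and 313 with TGF-β, 104 and 96.8 with SCF, and 109.9, 112, 149 and 131 with both. The TGF-β libraries stood alone above the other 8, whose combination libraries lay just over those without TGF-β. TGF-β raised Gss by 1.63 on the log2 scale without SCF (adjusted p = 4.8e-06), its value with SCF of 0.32 did not pass (adjusted p = 0.19), and the interaction was −1.31 ± 0.22 (SE, edgeR adjusted p = 0.0131). Soat1, which esterifies cholesterol, behaved alike, at 169 and 174 CPM with IL-3, 407 and 409.6 with TGF-β, 164 and 172 with SCF, and 209, 218, 209 and 213 with both, an interaction of −0.92 ± 0.17 (SE, edgeR adjusted p = 0.0194).

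Gpx3, a secreted glutathione peroxidase, was raised by each factor alone and lowered by TGF-β once SCF was present. It had 36.9 and 17.6 CPM with IL-3, 99.8 and 59.4 with TGF-β, 109 and 75.4 with SCF, and 54.7, 31.5, 49.2 and 21.7 with both; the combination overlapped IL-3 and no single-factor group. TGF-β changed Gpx3 by 1.49 without SCF (adjusted p = 0.023) and by −1.21 with it (adjusted p = 0.0053), an interaction of −2.70 ± 0.47 (SE, edgeR adjusted p = 0.0131). It was the only gene of the 37 in which both TGF-β effects were called in opposite directions. Both SCF effects were called in opposite directions in Gpx3, Usp40, Nptn, Tmem273 and Ly6a, the last 3 of which were named after their values were seen.

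SCF raised Ctsd and Tpsb2 without TGF-β and the combination kept less of that rise than the sum predicts. Ctsd, the lysosomal protease cathepsin D, had 1703 and 1710.0 CPM with IL-3, 1942 and 1859 with TGF-β, 3372 and 3121 with SCF, and 2070.0, 1962, 1871 and 1756 with both. The SCF libraries were the high ones and the combination overlapped TGF-β alone. SCF raised Ctsd by 0.93 on the log2 scale without TGF-β and its value was 0.01 with it, an interaction of −0.92 ± 0.16 (SE, edgeR adjusted p = 0.0131). Tpsb2, the mast cell tryptase mMCP-6, had 8440.0 and 7524 CPM with IL-3, 14240.0 and 13250.0 with TGF-β, 18250.0 and 15080.0 with SCF, and 17870.0, 14690.0, 17050.0 and 14820.0 with both. Each factor alone raised Tpsb2 (adjusted p = 0.00099 for TGF-β and 3.1e-05 for SCF), and the combination overlapped SCF alone. The interaction of −0.83 ± 0.17 (SE, edgeR adjusted p = 0.0344) held without 2 of the 10 libraries and was lost without each of the others. Tpsb2 and Tpsab1 are near-identical neighbours, so its counts are uncertain.

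The blunted falls were genes that TGF-β lowered less, or not detectably, once SCF was present. Lgals1, the glycan-binding galectin-1, had 385 and 458 CPM with IL-3, 36.7 and 42.2 with TGF-β, 898 and 1230.0 with SCF, and 319, 341, 199.9 and 275 with both, with no overlap between groups. TGF-β lowered Lgals1 by 3.41 on the log2 scale without SCF and by 1.91 with it, both called, and the interaction was 1.5 ± 0.30 (SE, edgeR adjusted p = 0.0311). In CPM the fall with SCF was the larger one: on the linear scale the interaction was −398.7 CPM, which did not pass (adjusted p = 0.121). Atad3a, an ATPase of the mitochondrial membrane, had 53.5 and 44.4 CPM with IL-3, 17.9 and 12.5 with TGF-β, 35.1 and 35.8 with SCF, and 45.0, 52.2, 34.4 and 41.3 with both. The TGF-β libraries were low and the combination overlapped both IL-3 and SCF, with an interaction of 1.98 ± 0.35 (SE, edgeR adjusted p = 0.0131). Ifitm1, an interferon-induced membrane protein, had 1990.0 and 1385 CPM with IL-3, 469 and 821 with TGF-β, 1158 and 1152 with SCF, and 1272, 1224, 1242 and 1019 with both, an interaction of 1.43. The predicted gene Gm44851 had an interaction of 0.96.

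**Figure D3:**
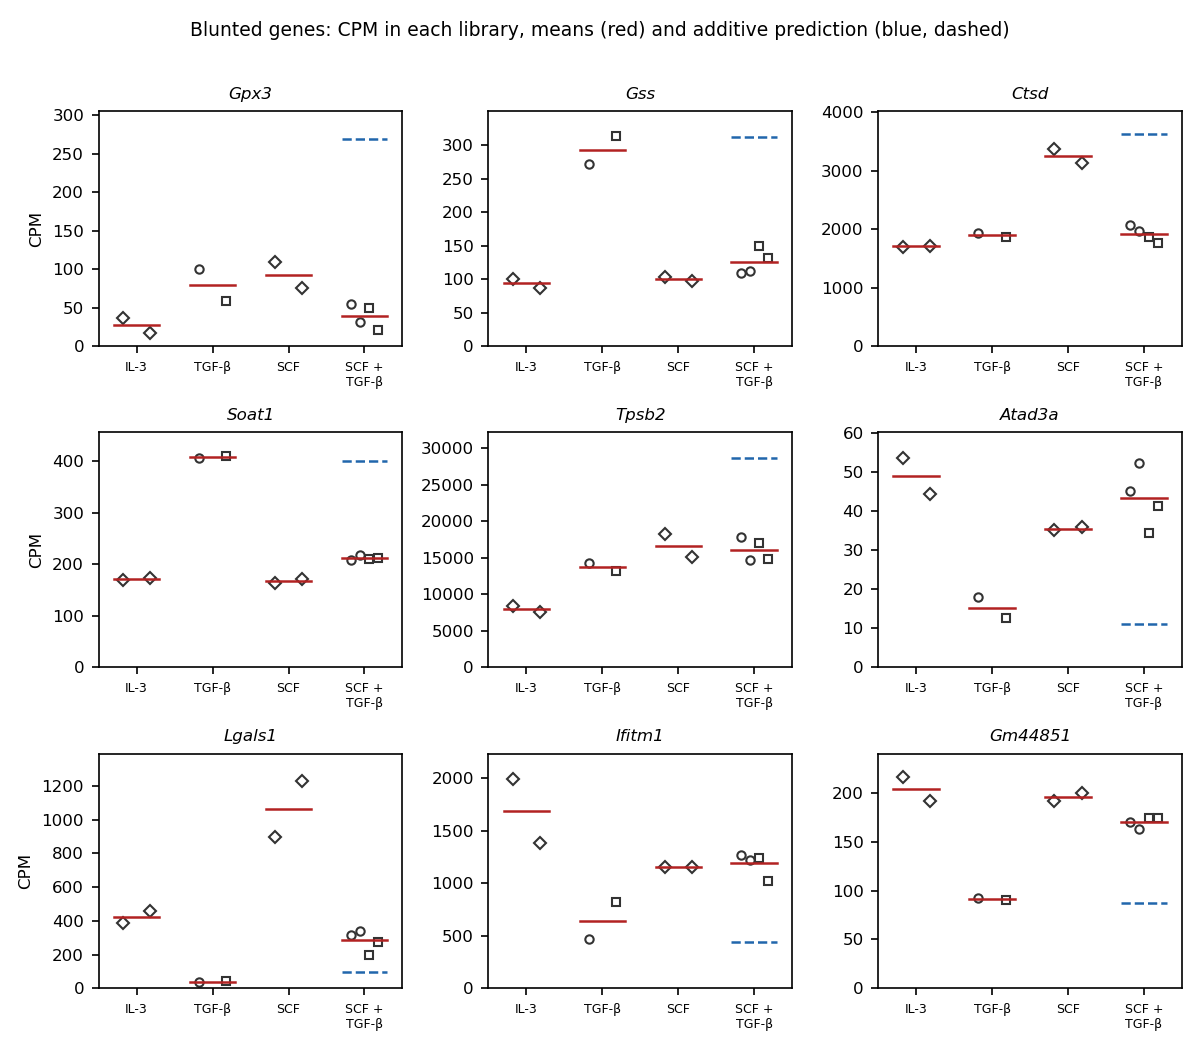
CPM on a linear axis from 0 in each library for the 9 blunted genes, by IL-3, TGF-β, SCF, and SCF with TGF-β; circles are 1 ng/mL and squares 10 ng/mL TGF-β, diamonds libraries without TGF-β, red bars group means and blue dashed bars the product of the single-factor fold changes. In Gpx3, Gss, Ctsd, Soat1 and Tpsb2 the combination falls short of the prediction, and in Atad3a, Lgals1, Ifitm1 and Gm44851 it exceeds it.

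The 12 called genes in neither class ran both ways. Abca1, the cholesterol exporter, had the interaction furthest from 0, −4.05 ± 0.86 (SE, edgeR adjusted p = 0.0311), at low levels of 3.64 and 2.12 CPM with IL-3, 11.9 and 10.2 with TGF-β, 13.0 and 8.17 with SCF, and 4.63, 1.78, 1.79 and 0.543 with both. Single-factor libraries were higher than all others, the combination overlapped IL-3, and some of these values lie at or under the floor. Ly6a, the surface antigen Sca-1, had 931 and 1390.0 CPM with IL-3, 1706 and 1580.0 with TGF-β, 1819 and 1920.0 with SCF, and 948, 1088, 1042 and 1172 with both, an interaction of −1.32. The others below the prediction were Ppfibp2 (−1.62), a liprin, Abhd15 (−1.27), the adhesion protein Nptn (−1.18), Rcn1 (−1.15), a calcium-binding protein of the endoplasmic reticulum, and Serinc3 (−0.85).

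In the 5 such genes above the prediction, the TGF-β libraries without SCF were the low ones. Tnfsf14, the cytokine LIGHT, had 60.3 and 61.3 CPM with IL-3, 28.1 and 13.3 with TGF-β, 72.2 and 77.9 with SCF, and 112, 113, 77.4 and 109 with both, an interaction of 2.02 ± 0.34 (SE, edgeR adjusted p = 0.0131). Rps2, a small-subunit ribosomal protein, had 326 and 264 CPM with IL-3, 136 and 102 with TGF-β, 474 and 391 with SCF, and 478, 432, 450.3 and 442 with both, an interaction of 1.37. Interactions were 2.25 for Raly and 1.72 for Lsm4, both RNA-processing genes, and 2.17 for Rnf187, a ubiquitin ligase. In 10 of the 11 called genes above the prediction the mean with TGF-β alone lay under that with IL-3. These TGF-β libraries were also the shallowest and, by not uniquely matched reads, included the highest of the series. Genes above the prediction had transcripts with a median length of 1847 bases and 55.5% G and C, against 3270 bases and 49.3% over all tested genes, and those below it 2826 bases and 49.7%. The part of these differences in the result was not tested. Rps2, Ly6a and Ifitm1 have close copies in the genome, so reads that match more than 1 of them were not counted.

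Additivity was called in its own right, not from a missed interaction. A gene is additive here when the average SCF effect and the average TGF-β effect, each taken over both states of the other factor, were called and the 95% interval of the interaction lay inside −1 to 1. The average SCF effect was called in 3469 genes (32.6%), the average TGF-β effect in 1342 (12.6%), and both in 690. Of these 690, which became 448 without the 10 ng/mL TGF-β library, 312 were additive (2.93% of genes tested), 20 had a called interaction and 358 were in neither set, whether from a wide interval or from a departure that did not pass. The additive genes had a median level of 132 CPM against 27.3 CPM over all genes tested, since the rule takes precise estimates. Their number was 167 without the 10 ng/mL TGF-β library, 168 and 182 without SCF replicate 2 and IL-3 replicate 2, 189 without IL-3 replicate 1, and 204 with DESeq2.

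In other genes both average effects ran the same way. Since the rule uses average effects, the combination need not be told from each factor alone. In the additive genes Alox5ap and Cd63 the SCF effect with TGF-β did not pass (edgeR adjusted p = 0.215 and 0.284). Both effects were positive in 143 genes, 54 of them additive (0.507%), and negative in 165, 50 of them additive (0.469%). The 143 became 64 without the 10 ng/mL TGF-β library, 92 without IL-3 replicate 2 and 88 without SCF replicate 1, and the 165 became 107 without the first or last of these and 109 without IL-3 replicate 2. The median combined change against IL-3, on the log2 scale, was 1.91 over all 143 genes and −1.82 over all 165, additive or not. Ddc, the decarboxylase of serotonin synthesis, had 16.1 and 16.2 CPM with IL-3, 39.2 and 36.7 with TGF-β, 47.1 and 75.4 with SCF, and 102, 123, 119 and 119.5 with both. Groups did not overlap, and the measured combined change of 2.84 on the log2 scale stood beside a predicted 3.13. Ccnb2, the mitotic cyclin B2, had 29.1 and 12.7 CPM with IL-3, 23.9 and 57.1 with TGF-β, 95.8 and 79.8 with SCF, and 152, 167, 185 and 179 with both. TGF-β alone overlapped IL-3 and the combination was the highest; the measured change was 2.97 and the predicted one 2.92.

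Both factors lowered the phosphatase gene Ptpn2, a restraint on cytokine signalling. It had 291 and 302 CPM with IL-3, 132 and 126 with TGF-β, 208 and 189.7 with SCF, and 85.5, 84.3, 67.1 and 67.3 with both, with no overlap between groups and a combined change of −1.96 against a predicted −1.78. Slc6a13, a GABA transporter, fell from 96.7 and 104 CPM with IL-3 to 54.6 and 63.3 with TGF-β, 54.2 and 39.6 with SCF, and 28.6, 22.6, 21.0 and 23.4 with both. Pim1 and Socs1, STAT5 target genes, were additive falls as well, with combined changes of −1.55 and −1.38. Kit, the SCF receptor, had 4582 and 5096 CPM with IL-3, 4476 and 3699 with TGF-β, 4604 and 3938 with SCF, and 3171, 3250.0, 3094 and 3300.0 with both, average effects of −0.27 for SCF (adjusted p = 0.018) and −0.33 for TGF-β (adjusted p = 0.011). Only the combination stood apart for Kit, and its interaction of −0.17 had an interval from −0.52 to 0.18.

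In the opposed genes the average effects ran in opposite directions. SCF raised and TGF-β lowered 232 genes, 151 of them additive (1.42%), and SCF lowered and TGF-β raised 150, 57 of them additive (0.535%). The 232 became 140 without IL-3 replicate 1, and the 150 became 78 and 99 without IL-3 replicates 1 and 2 and 72 without SCF replicate 2. The median combined change was 0.03 in the first set, with 10th and 90th percentiles of −0.44 and 0.62, and −0.03 in the second, with −0.61 and 0.50, so single genes ended on either side of IL-3. Pkm, the pyruvate kinase of glycolysis, had 419 and 468 CPM with IL-3, 235 and 232 with TGF-β, 885 and 997 with SCF, and 445, 541, 392 and 434 with both. The combination overlapped IL-3, with a combined change of 0.03 against a predicted 0.17. Osbpl8, a lipid transfer protein, ended above IL-3: 109.6 and 96.6 CPM with IL-3, 55.4 and 52.4 with TGF-β, 374 and 309.7 with SCF, and 186, 161, 179 and 135 with both. The measured and predicted combined changes were 0.68 and 0.78.

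The opposed genes included granule and mediator genes. Cpa3, the granule carboxypeptidase A3, had 15910.0 and 15310.0 CPM with IL-3, 7210.0 and 7558 with TGF-β, 26790.0 and 23450.0 with SCF, and 13730.0, 11400.0, 10610.0 and 10100.0 with both. The 4 groups did not overlap, and the measured combined change of −0.45 stood beside a predicted −0.39. Srgn, the granule proteoglycan serglycin, had 3155 and 2967 CPM with IL-3, 1582 and 1741 with TGF-β, 4873 and 5014 with SCF, and 2705, 2600.0, 2297 and 2446 with both, again with no overlap. The chemokine Ccl2 ended well below IL-3, at 1098 and 936 CPM with IL-3, 383 and 318 with TGF-β, 1413 and 1332 with SCF, and 549, 525, 361 and 445 with both; measured and predicted changes were both −1.11. The D cyclins Ccnd2 and Ccnd3 and the lysosomal enzyme Hexa were opposed and additive as well.

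In the reverse direction, Dhrs3, a retinaldehyde reductase, had 26.0 and 33.1 CPM with IL-3, 120.2 and 116 with TGF-β, 16.1 and 11.3 with SCF, and 51.4, 39.8, 78.3 and 51.6 with both. The groups did not overlap, and the interaction was −0.01 with an interval from −0.82 to 0.80. Slc2a1, the glucose transporter GLUT1, was raised by TGF-β and lowered by SCF in the average effects, whereas Slc2a3 (GLUT3) was raised by SCF and lowered by TGF-β. Both were additive. For Slc2a1 the TGF-β effect passed neither without nor with SCF (edgeR adjusted p = 0.098 and 0.0502). Nor did the SCF effect on Slc2a1 without TGF-β (edgeR adjusted p = 0.141), while for Slc2a3 each of these effects passed. The opposed counts moved with single libraries: 151 became 86 without IL-3 replicate 1, 97 and 91 without the 1 and the 10 ng/mL TGF-β library and 95 without SCF replicate 2, and 57 became 18 without SCF replicate 2, 22 and 24 without IL-3 replicates 1 and 2, 34 and 27 without the 1 and 10 ng/mL TGF-β library and 36 without SCF replicate 1. The same-direction counts did too: 54 became 25 without the 10 ng/mL TGF-β library, 30 and 33 without IL-3 replicates 1 and 2, and 31 and 29 without SCF replicates 1 and 2, and 50 became 22 without IL-3 replicate 2, 24 without the 10 ng/mL TGF-β library, and 31 and 26 without SCF replicates 1 and 2.

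**Figure D4:**
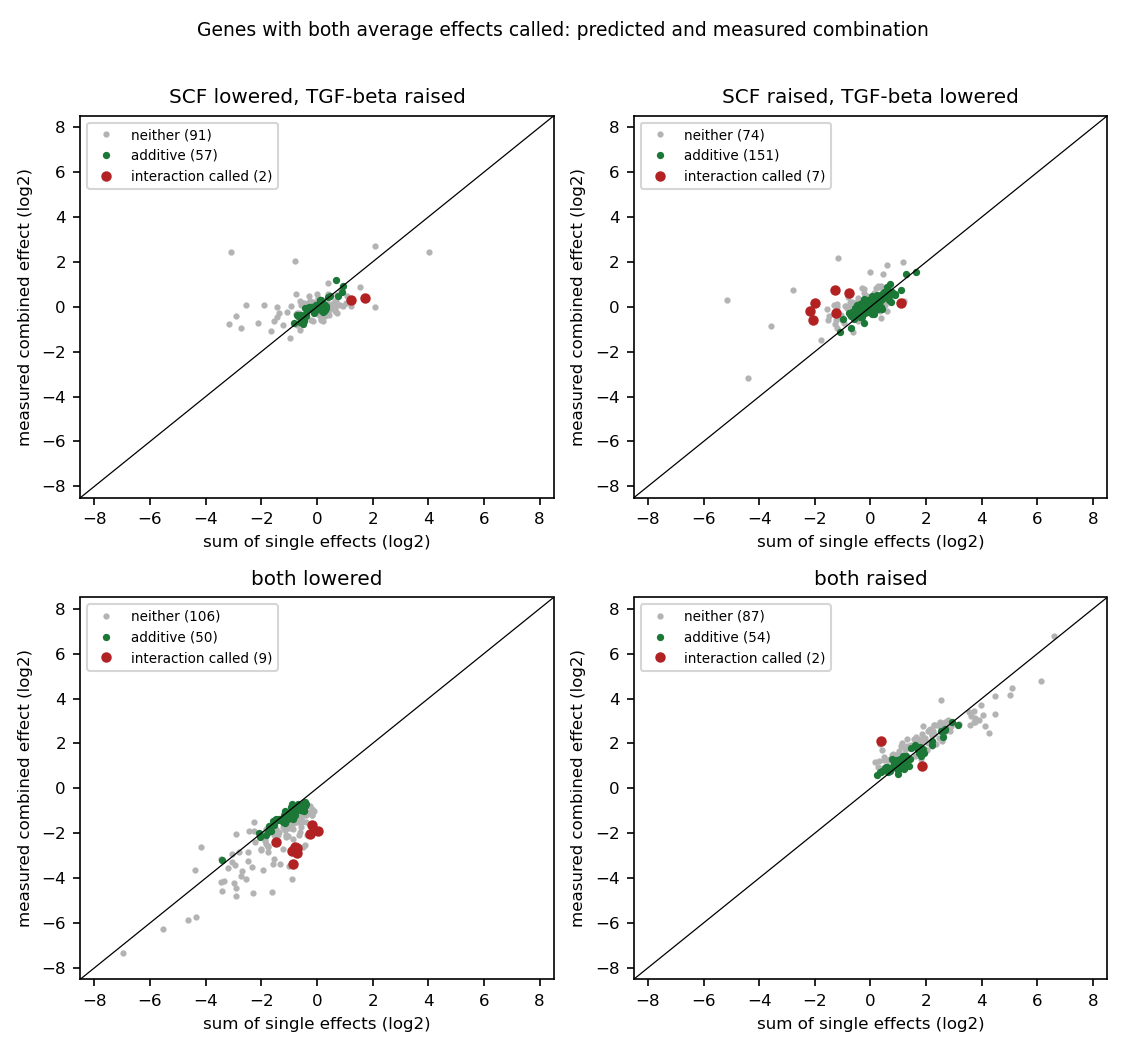
Sum of the 2 single-factor log2 changes (x axis) against the measured log2 change of SCF with TGF-β over IL-3 (y axis) for the 690 genes with both average effects called, by direction; green points are additive, red points have a called interaction, grey points neither, and the line marks equality. The opposed genes centre near 0 on both axes, and genes that both factors lowered lie mostly under the line, with a median interaction of −0.63.

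Across these sets the median interaction was 0.16 where both factors raised a gene, −0.63 where both lowered it, 0.19 where SCF raised and TGF-β lowered it and −0.04 in the reverse, against −0.0049 over all genes tested. The average effects and the interaction come from the same libraries, so these medians are descriptions. On the linear scale, where additive means that CPM changes add, 38 genes were called (0.357%), 25 above and 13 below. Of the 37 genes called on the log2 scale, 14 were called there in the same direction, and none of the 312 additive genes was called. A gene's class was set on the log2 scale. Missing the linear call does not show that CPM changes add, since only 38 genes were called there.

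Mast cell granule and identity genes were tested as 2 lists. Among 20 tested granule and amine genes, the average SCF effect was positive in 8 and negative in 3, against 16.8% and 15.8% of all genes tested, and the average TGF-β effect positive in 2 and negative in 7, against 5.28% and 7.31%. The interval was inside a factor of 2 for 16, against 4350 of all 10654 genes, and 1 (Ctsd) had a called interaction, against 0.347% of all genes. The tryptase gene Tpsb2 was on a separate list of 14 tested connective tissue mast cell genes, as its 1 called interaction. Intervals are narrower for genes with more counts, so a high share of narrow ones in a list does not show that its genes are more additive. Of 22 mast cell identity genes, 19 had such an interval and 0 a called interaction, a count that at 0.347% shows nothing particular to them. Fcer1a, the IgE receptor's α chain, went from 10510.0 and 10430.0 CPM with IL-3 to 6935 and 6752 with TGF-β, 11040.0 and 10120.0 with SCF and 7166, 6278, 6020.0 and 5488 with both. Libraries with TGF-β were low with or without SCF, and Fcer1a's interaction was −0.15 with an interval from −0.49 to 0.20. Hdc, the histamine-forming enzyme, had an average TGF-β effect of −1.80 and an interaction of −0.24, with an interval from −0.93 to 0.44.

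The mucosal protease genes could not be placed, because their counts with IL-3 were too few or their spread too wide. None of 5 tested mucosal genes had an interval inside a factor of 2. Mcpt2, the mucosal chymase mMCP-2, had 9.87 and 13.4 CPM with IL-3, 607 and 4002 with TGF-β, 21.1 and 21.4 with SCF, and 3778, 2875, 6724 and 4051 with both. TGF-β libraries were far above the rest in both SCF states, and the 1 ng/mL library without SCF lay below the other 5. The interaction of Mcpt2 was 0.03 with an interval from −2.06 to 2.12. Taking 1 library of each group, with the combination at the dose of the TGF-β library, the difference of the effects was 1.59 over the number 2 libraries at 1 ng/mL and −0.32 over the number 1 libraries at 10 ng/mL. Mcpt1, which had no count with IL-3, was listed at 2.56 and 27.4 CPM with TGF-β, 0.502 and 0 with SCF, and 90.1, 63.5, 212 and 115 with both, and no interaction can be given against a group at 0. Gzmb, granzyme B, had 1197 and 733 CPM with IL-3, 30.7 and 19.5 with TGF-β, 1696 and 1826 with SCF, and 149, 172, 43.4 and 67.3 with both; its interaction of 1.23, interval −0.02 to 2.49, did not pass (adjusted p = 0.535).

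In growth lists most members were called higher with SCF, against 16.8% of all genes tested. All 40 tested mitosis genes were called higher in the average SCF effect, as were 32 of 38 replication genes, 22 of 24 sterol synthesis genes and 39 of 44 ribosomal protein genes. The average TGF-β effect was called upward in 14 of the mitosis genes and 14 of the replication genes, and downward in 7 sterol genes and 2 ribosomal genes, against 5.28% upward and 7.31% downward over all genes. A list of RNA quality and stress genes also moved with SCF: of 12 tested, 7 were called lower, against 15.8% of all genes, and 1 higher, with a median average SCF effect of −0.32. Its part in these results was not tested. The 14 mitosis genes became 1 without the 10 ng/mL TGF-β library, 5 and 28 without IL-3 replicates 2 and 1, 26 without the 1 ng/mL TGF-β library, 6 without SCF replicate 1 and 8 without replicate 2 of SCF with 10 ng/mL. The 14 replication genes became 5 without the 10 ng/mL TGF-β library, 6 without IL-3 replicate 2 and 8 without SCF replicate 1, and the 7 sterol genes 3 without IL-3 replicate 1 or the 1 ng/mL TGF-β library. Median interactions were 0.37 for mitosis, 0.32 for replication and 0.40 for sterol genes, against −0.0049 over all genes tested. No gene of these 3 lists was called, which at 0.347% over all genes shows nothing particular to them. The interaction's interval lay inside a factor of 2 for 3 of 40 mitosis, 6 of 38 replication and 8 of 24 sterol genes. Over all genes it did so for 4350 of 10654. TGF-β was called upward in 1 mitosis gene without SCF and 24 with it, and in 1 and 16 replication genes. These shares over all genes were 1.75% and 4.5%, and the combination had 4 libraries against 2 in other groups.

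For ribosomal protein genes the interval of the interaction lay inside a factor of 2 in 42 of 44, against 4350 of all 10654 genes, a share that also follows how many counts a gene has. Their median interaction was 0.08, and Rps2 was the called exception. Mki67, a marker of cycling cells, had 23.4 and 10.6 CPM with IL-3, 17.1 and 42.2 with TGF-β, 51.7 and 63.5 with SCF, and 118, 137, 127 and 122 with both. TGF-β without SCF overlapped IL-3 and the combination was the highest; the interaction of 0.38 had an interval from −0.48 to 1.24, too wide to call Mki67 additive.

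In supply and secretory lists more members were called higher than lower with SCF and more lower than higher with TGF-β, while most had no called TGF-β effect. Over all genes tested the average SCF effect was called higher in 16.8% and lower in 15.8%, the average TGF-β effect in 5.28% and 7.31%, and 2.93% were additive. Of 28 amino acid response and unfolded protein genes, 17 were called higher and 1 lower in the average SCF effect, and 8 lower and 0 higher in the average TGF-β effect. Of the 28, 7 were additive, Calr, the calcium-binding chaperone calreticulin, among them: 419.9 and 341 CPM with IL-3, 185 and 234 with TGF-β, 656 and 782 with SCF, and 469, 552, 365 and 448 with both. The combination of Calr overlapped IL-3. Of 22 glycolysis and hypoxia genes, 10 rose and 2 fell on average with SCF, 1 rose and 8 fell with TGF-β, and 6 were additive. Lysosome genes had 15 with a positive and 1 with a negative SCF effect, 1 and 9 for TGF-β, a median interaction of −0.24 and 6 additive members of 32. The 8 TGF-β falls became 5 in the unfolded protein list without IL-3 replicate 1 or the 10 ng/mL TGF-β library, and 5 in the glycolysis list without either of these or SCF replicate 2; the 7 additive genes became 3 without the 10 ng/mL TGF-β library and 4 without SCF replicate 2.

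**Figure D5:**
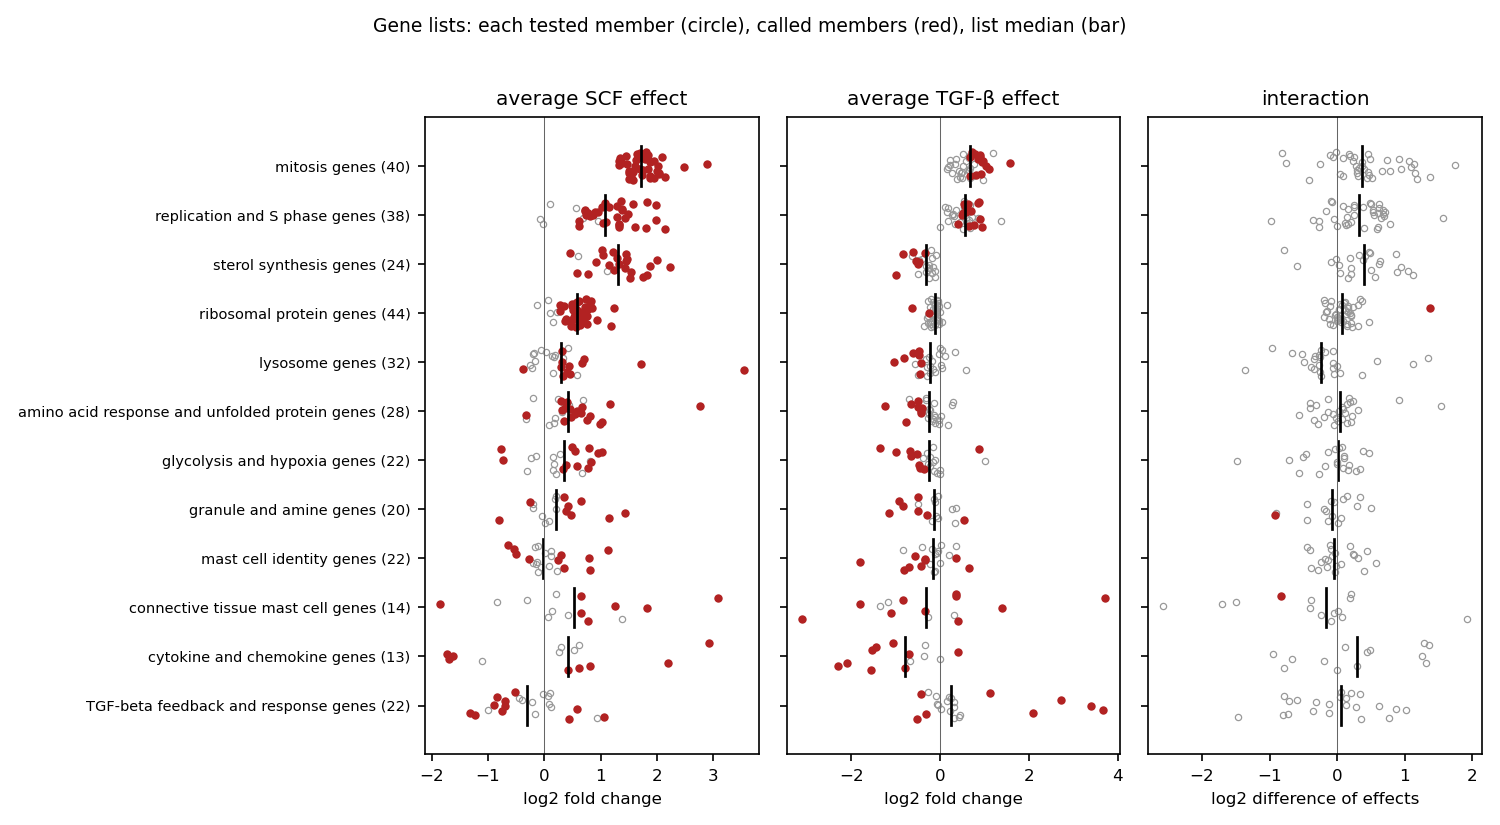
Average SCF effect, average TGF-β effect (both log2 fold change) and interaction (log2 difference of effects) for members of 12 gene lists. The number after each name is the number tested. A gene on several lists is drawn only under the first of them, so a list can show fewer genes than were tested. Circles are genes, red circles called genes and bars medians of the genes drawn. Over the full lists, average SCF effects are positive in all 40 mitosis genes, and average TGF-β effects are called negative in 9 lysosome genes. Ctsd, among the 9, is also a granule gene and is drawn there. Called interactions are limited to Rps2, Ctsd and Tpsb2 in these lists.

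Among 22 tested TGF-β feedback and response genes, the average TGF-β effect was called higher in 5 and lower in 3, against 5.28% and 7.31% of all genes tested, the 3 becoming 1 without IL-3 replicate 2. Of these 22 genes 0 had a called interaction, which at 0.347% over all genes shows nothing particular to them, and the interval was inside a factor of 2 for 6. Smad7, the inhibitory SMAD, had 2.60 and 4.94 CPM with IL-3, 23.9 and 36.0 with TGF-β, 2.51 and 4.40 with SCF, and 12.2, 11.3, 28.2 and 21.7 with both. TGF-β libraries were above the rest in both SCF states, with an average TGF-β effect of 2.73 (edgeR adjusted p = 1.7e-05), and the interaction of −0.60 had an interval from −2.29 to 1.10. Of 13 cytokine and chemokine genes, the average TGF-β effect was called lower in 8, in 5 without IL-3 replicate 1.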

How the data were processed

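SmartSeq2 libraries were sequenced by the authors as short read pairs, per the labels' protocols, without molecular identifiers, so 2 reads need not be 2 molecules. The deposited table holds raw counts per Ensembl gene for all 10 libraries. The submitters' processing notes name STAR, HTSeq and DESeq2, with builds GRCm38 and mm10, with no versions; strandedness is not given in the sources used here. Counter output that names no gene (5 rows) was left out of library sizes; reads in no feature came to 26.0% to 33.6% of the tally. Of 49671 gene rows, 49412 had a symbol in GENCODE vM21.

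Counts were filtered on the 4 groups, scaled by TMM and fitted in edgeR 4.0.16 (R 4.3.3) with 1 mean for each group, TGF-β doses pooled and 6 residual degrees of freedom. Tests were quasi-likelihood F tests with Benjamini-Hochberg adjustment over all 10654 genes, called under 0.05. Intervals are 95% Wald intervals. CPM are counts scaled to a common total by TMM library size. The steps were tested on simulated data. Named genes were fixed anchors, the 10 largest called interactions each way with at least 20 CPM in a group and the same sign within both replicate numbers, up to 8 synergistic genes each way, the 6 leading additive genes of each direction, and per list up to 6 members with a called interaction and up to 3 additive ones; predicted genes and pseudogenes were left out except in lists. The members, lists and rule were chosen with earlier results of these data known. The called genes outside the rule (Abca1, Abhd15, Cipc, Gm44851, Gss, Ly6a, Nptn, Ppfibp2, Rasgrp4, Rcn1, Serinc3, Soat1, Tmem273, Tsc22d3 and Zfyve26) were named to complete the count of 37, after their values were seen. Alternatives were DESeq2 1.42.0, limma-voom 3.58.1, other scalings, filters and margins, single doses, a replicate block and leaving out each library. Some genes are not reported here.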

Additional observations from a re-analysis of the deposited data

Results flagged for a closer look

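The 37 genes below stood out because the TGF-β effect with SCF differed from the effect without it by the test of the difference itself (edgeR quasi-likelihood F test, interaction term, adjusted p under 0.05). Values are interactions on the log2 scale, with 4 libraries of the combination and 2 of each other group.

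Below the additive prediction were Btg2 (−2.69), Gdf15 (−1.97), Ndrg1 (−1.95), Tsc22d3 (−1.48), Trpm2 (−2.39), Dlg2 (−2.18), Fgd2 (−1.81), Ppfibp2 (−1.62) and Rasgrp4 (−0.95), and also Abca1 (−4.05), Gpx3 (−2.70), Gss (−1.31), Abhd15 (−1.27) and Soat1 (−0.92). The proteases below were Mmp27 (−1.89), Ctsd (−0.92) and Tpsb2 (−0.83). Further ones were Ntng2 (−1.82), Ly6a (−1.32), Nptn (−1.18), Tmem273 (−1.06) and Serinc3 (−0.85). The others below were Asphd2 (−2.50), Zfyve26 (−1.54), Rcn1 (−1.15) and Cipc (−1.04).

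Above the prediction were Raly (2.25), Lsm4 (1.72) and Rps2 (1.37), Rnf187 (2.17) and Usp40 (1.24), and Tnfsf14 (2.02), Lgals1 (1.5) and Ifitm1 (1.43). The last 3 were Atad3a (1.98), Endod1 (1.72) and Gm44851 (0.96).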

How the results depend on the processing

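The 37 called genes kept their direction in every refit, while 193 of 370 values without 1 library and 95 of 406 values in other refits missed the threshold; on the linear scale 14 were called alike and Lgals1 turned to −398.7 CPM, with 25 genes above and 13 below. The kept direction comes from the same libraries that picked the genes and is no independent support. Without a filter on low counts 118 were called (61 above, 57 below), 49 synergistic and 34 blunted. With 6 labelled groups 17 lay below. With only 10 ng/mL TGF-β edgeR called 0 interactions, either way or in either class (843 at an unadjusted p under 0.05, 4 called by DESeq2), beside 282 for TGF-β without SCF, 1018 for SCF with TGF-β and 142 additive genes; with only 1 ng/mL these were 6 (2 above, 4 below, 3 synergistic, 3 blunted), 134, 1365 and 86, and 494 for TGF-β with SCF, 1677 combined and 582 average TGF-β. DESeq2 called 746 for SCF without TGF-β and 204 additive, and a margin of 1.5-fold left 85. Asking for at least 2-fold left 233 and 473 for TGF-β without and with SCF, 524 and 1313 for SCF without and with TGF-β, 1205 combined, 1029 and 377 average SCF and TGF-β, and 5 blunted. Without each library in turn the ranges were 3 to 37 (interactions), 1 to 22 (above), 2 to 27 (below), 1 to 19 (synergistic), 2 to 13 (blunted), 167 to 295 (additive), 184 to 477 (TGF-β without SCF), 589 to 1187 (TGF-β with SCF), 303 to 1199 (SCF without TGF-β), 1497 to 2967 (SCF with TGF-β), 1422 to 2662 (combined); a group left with 1 library is assumed to vary like the others. Counts of 1 to 3 in gene lists moved by 1 or 2 with single libraries.

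Replicate numbers are shared by the groups, but nothing says that a number marks a shared culture or day. Differences between replicates 1 and 2 correlated across 6404 genes at 0.35 to 0.41 between the 3 SCF groups. The correlation was 0.36 between IL-3 and TGF-β, where dose and number coincide, and −0.054 to 0.01 between libraries with and without SCF. The interaction is built from differences within each SCF state, where the higher correlations lie. The main fit took no pairs because the labels name none, and its count of calls depends on that choice. With the replicate block 75 interactions were called (32 above, 43 below), 35 synergistic and 22 blunted. A replicate block within each SCF state, chosen after seeing the data, gave 357 (175 above, 182 below), 157 synergistic, 102 blunted and 802 additive, 1139 and 1982 for TGF-β without and with SCF, 2180 for SCF without TGF-β and 2147 average TGF-β. The cause of these moves was not tested beyond the smaller number of samples or genes that an alternative holds. Depth limits low genes: 3 counts are worth 1.29 to 2.42 CPM.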

Other observations

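Of 10 tested eicosanoid genes, 2 were additive with both average effects positive, against 0.507% of all genes tested. For Alox5ap the SCF effect passed neither without nor with TGF-β (edgeR adjusted p = 0.197 and 0.215). For Ptgs1 neither TGF-β alone nor SCF alone passed (edgeR adjusted p = 0.252 and 0.175). Alox5ap, which presents arachidonic acid to 5-lipoxygenase, had 816 and 804 CPM with IL-3, 1215 and 1351 with TGF-β, 1058 and 927 with SCF, and 1510.0, 1297, 1728 and 1390.0 with both. Ptgs1, cyclooxygenase 1, had 134 and 195 CPM with IL-3, 252 and 181 with TGF-β, 214 and 213.6 with SCF, and 368, 413, 412 and 419 with both. The combination of Ptgs1 lay above all other libraries, and that of Alox5ap overlapped TGF-β alone. Their interactions were −0.09 and 0.51, the second with a 95% interval from 0.04 to 0.99, inside the margin of 1 though not at 0. The tetraspanin Cd63, a granule membrane protein, had 1756 and 1658 CPM with IL-3, 2994 and 3160.0 with TGF-β, 2516 and 2453 with SCF, and 3374, 3304, 3669 and 3312 with both, with no overlap between groups and an interaction of −0.39 (interval −0.71 to −0.07). Ptgs1 and Cd63 therefore passed as additive under a margin of 2-fold while their intervals leave out 0. They were not the only ones: the interval was 0.01 to 0.71 for Cdkn1a and −0.85 to −0.04 for Chst15, both additive by the rule. Additive here means a departure under 2-fold, and not none.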
